A study of Mus musculus with 22 samples.

Results

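Samd1 and the proteins it is known to work with were followed in the anterior cingulate cortex (ACC) of mice whose amygdala input to that area had been activated repeatedly. The 10 genes were Samd1, Kdm1a, Rcor1, Rcor2, Rcor3, Hdac1, Hdac2, Phf21a, Hmg20b and L3mbtl3, out of 37786 genes in the count table. They were taken by gene name, and each had a single row. Samd1 was selected on its measured counts, which were higher in stimulated than in control mice, so its difference between the groups is given as a description with no test. The other 9 genes, called partners here, were chosen for known membership of the KDM1A corepressor complex or, for L3mbtl3, for its known link to SAMD1 and KDM1A.

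RNA sequencing gave a count for every gene in ACC tissue dissected from 22 wildtype male C57BL/6J mice, 12 of them controls (ctrl) and 10 stimulated (stim). All the mice, controls included, carried a viral vector in the basolateral amygdala (BLA) in which the CaMKIIa promoter, active mainly in excitatory neurons, drives channelrhodopsin fused to EYFP, and an optic fiber in the ACC on one side. Stimulated mice had 9 sessions of light pulses on the BLA terminals in the ACC, 20 minutes a day on 3 consecutive days a week for 3 weeks, and controls went through the same procedure with the light off. The mice were 8 weeks old when the procedures began, and the ACC was taken 48 hours after the last session. The tissue was bulk, so fewer cells of a type and less RNA per cell cannot be told apart.

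The library numbers in the labels form an early run, libraries 1 to 11 (run 1, 6 control and 4 stimulated mice), and a late run, libraries 12 to 23 (run 2, 6 control and 6 stimulated mice), with no library 7. The study describes 2 cohorts of mice, but the labels do not say which mouse belonged to which, and the run stands in for the cohort here. Each library held 23090483 to 43668462 counts, with 0.982 to 4.81% of them from mitochondrial genes. Levels are in CPM, a gene's counts scaled to a common library total (with trimmed mean of M-values factors), or in RPKM (CPM per kilobase of exon) where different genes are set side by side. Differences are log2 fold changes, stimulated minus control, with standard errors (SE) from a fit to all 22 mice that also held the run. The summed level of 10 oligodendrocyte markers was 3240 to 19900 CPM in controls and 2390 to 5860 CPM in stimulated mice, and stimulated mice had less of all 10 (median log2 difference -0.71). In run 1 those ranges were 3240 to 6350 and 3410 to 5860 CPM, and in run 2 they were 3610 to 19900 and 2390 to 4600 CPM. The 6 excitatory neuron markers summed to 2930 to 6770 CPM in controls and 2870 to 7680 CPM in stimulated mice, so the defining markers of cortical excitatory neurons were present in every library.

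KDM1A, also called LSD1, is an enzyme that takes methyl groups off lysine 4 of histone H3, a mark of active promoters and enhancers. In the CoREST complex it is joined to the histone deacetylases HDAC1 and HDAC2 by a scaffold of the RCOR family, so that one assembly can remove both methyl and acetyl groups and lower transcription. The complex is also known as a partner of the repressor REST, which keeps neuronal genes silent in other cell types. SAMD1 is a chromatin protein that binds unmethylated CpG islands and is known to bring in KDM1A and the methyl-lysine reader L3MBTL3.

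Samd1 lies on chromosome 8 of GRCm38 (chr8:83997672-84000409, plus strand, ENSMUSG00000079003), where the GENCODE M21 annotation gives it 5 merged exons of 2393 bases in all. Its exons were 63.7% G and C, above 99.1% of the genes in the table. The other members ranged from 42.1% for Hdac2 to 61.2% for Hmg20b. The first 300 coding bases of Samd1 and Hdac2 are shown because these genes stand at opposite ends of the members in base composition. The balance of GC-rich and GC-poor genes differed on average between the groups, as described further on. CpG dinucleotides are in capitals. The Samd1 stretch lies in its first exon, chr8:83997672-83997971, with 74.7% GC and 50 CpG. The Hdac2 stretch is spliced from 4 exons between bases 36974752 and 36988096 of chromosome 10, plus strand, with 39.7% GC and 8 CpG.
Samd1: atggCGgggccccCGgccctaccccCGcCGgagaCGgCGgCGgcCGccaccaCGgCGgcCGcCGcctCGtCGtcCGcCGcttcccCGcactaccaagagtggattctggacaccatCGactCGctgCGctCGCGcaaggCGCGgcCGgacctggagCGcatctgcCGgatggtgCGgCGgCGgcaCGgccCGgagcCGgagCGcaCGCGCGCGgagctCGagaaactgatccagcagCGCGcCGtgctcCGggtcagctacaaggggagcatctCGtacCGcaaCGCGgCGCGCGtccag
Hdac2: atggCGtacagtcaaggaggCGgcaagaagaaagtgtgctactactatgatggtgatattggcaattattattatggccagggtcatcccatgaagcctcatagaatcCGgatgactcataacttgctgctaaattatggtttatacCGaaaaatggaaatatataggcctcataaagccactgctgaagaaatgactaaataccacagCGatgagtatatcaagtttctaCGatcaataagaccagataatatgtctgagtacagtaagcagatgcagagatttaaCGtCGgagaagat

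Per length, Hdac2 was the most abundant member, with a level of 30.6 ± 4.81 RPKM (SD, n = 22), followed by Kdm1a at 17.9 ± 2.85 RPKM. Rcor1, at 4.73 ± 1.47 RPKM, Samd1, at 4.16 ± 0.80 RPKM, and Rcor2, at 3.69 ± 0.60 RPKM, came next, and these neighbours lay within 1 SD of each other. Phf21a at 2.82 ± 0.30 RPKM, Hdac1 at 2.41 ± 0.39 RPKM, Hmg20b at 2.13 ± 0.39 RPKM and L3mbtl3 at 2.04 ± 0.34 RPKM formed a close series, in which the ranges of mean ± SD of neighbouring genes overlapped. Rcor3 was lowest at 1.16 ± 0.13 RPKM. These levels divide by all annotated exon bases of a gene, so genes with long, rarely used exons are understated, and the level of Hdac1 leaves out reads that also match a copy of it, described further on.

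Samd1 was higher in stimulated mice. In controls its level had a lowest value of 6.39, a median of 9.12 and a highest of 10.6 CPM (mean 8.63 ± 1.27 SD, n = 12), from 235 to 327 counts per library. In stimulated mice the lowest was 8.98, the median 12.0 and the highest 13.0 CPM (mean 11.5 ± 1.24 SD, n = 10), from 197 to 519 counts. The groups overlapped at the lower end of the stimulated mice, with 8 of the 10 stimulated mice above every control (8 or more were for 0.0228% of all genes, a share that the choice of Samd1 makes no test) and 9 of 10 above the control median. The log2 fold change was 0.42 (SE 0.09), or 1.34-fold. The SD of log2 CPM among mice of one group and run was 0.16.

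The Samd1 difference was larger in run 1 than in run 2, a description with no test. In run 1 the 6 controls had a lowest level of 6.39, a median of 7.48 and a highest of 9.35 CPM, and the 4 stimulated mice had 12.8, 12.1, 12.1 and 12.2 CPM. These ranges did not overlap, which was so, with stimulated mice higher, for 0.514% of all 17524 genes tested. In run 2 the 6 controls had a lowest level of 8.63, a median of 9.37 and a highest of 10.6 CPM, while the 6 stimulated mice had a lowest of 8.98, a median of 11.1 and a highest of 13.0 CPM. Here the groups overlapped, with 4 of 6 stimulated mice above every control of that run (4 or more were for 7.66% of all genes). The log2 fold change was 0.67 (SE 0.13) within run 1 and 0.19 (SE 0.11) within run 2, each fitted alone. In a joint fit of all mice, which shares the spread and scaling, the effect in run 2 minus that in run 1 was -0.43 (SE 0.16). Between the runs, over both groups, Samd1 differed by 0.08 (Benjamini-Hochberg adjusted p = 0.413, edgeR quasi-likelihood test), a difference not past the threshold of 0.05.

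**Figure D1:**
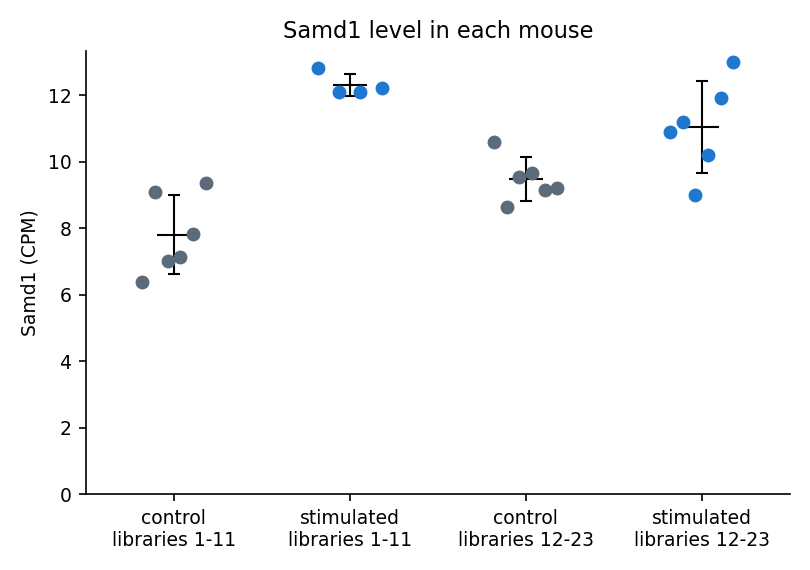
Samd1 level in CPM (vertical axis, from 0) in each of the 22 mice, split by group and by run of library numbers. Points are mice, bars give the mean ± SD. The 4 stimulated mice of run 1 sit between 12.1 and 12.8 CPM, above all controls, while the 6 stimulated mice of run 2 spread from 8.98 to 13.0 CPM and overlap their controls.

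The level of GC-rich genes against GC-poor genes was also higher on average in stimulated mice, with overlap in both runs and no test. For each library the mean log2 CPM of the 10% of genes with the lowest GC was taken from that of the 10% with the highest. This balance was 0.93 ± 0.15 in controls and 1.12 ± 0.14 in stimulated mice (SD, n = 12 and 10). In run 1 it was 0.71 to 1.08 in controls and 1.02 to 1.27 in stimulated mice, and in run 2 it was 0.78 to 1.17 and 0.80 to 1.28. Across 17516 genes the Spearman correlation of GC content with the log2 fold change was 0.27, a description over genes of the same libraries. The 1750 genes of the highest GC had a median difference of 0.05 (log2), and 25 of them were at or above the value of Samd1. For the tenth of genes with the lowest GC the median was -0.10. After each library was corrected for GC content the log2 fold change of Samd1 was 0.35 (SE 0.08), and it was 0.54 (SE 0.13) within run 1 and 0.16 (SE 0.10) within run 2. The part of GC content in what remained was not tested.

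**Figure D2:**
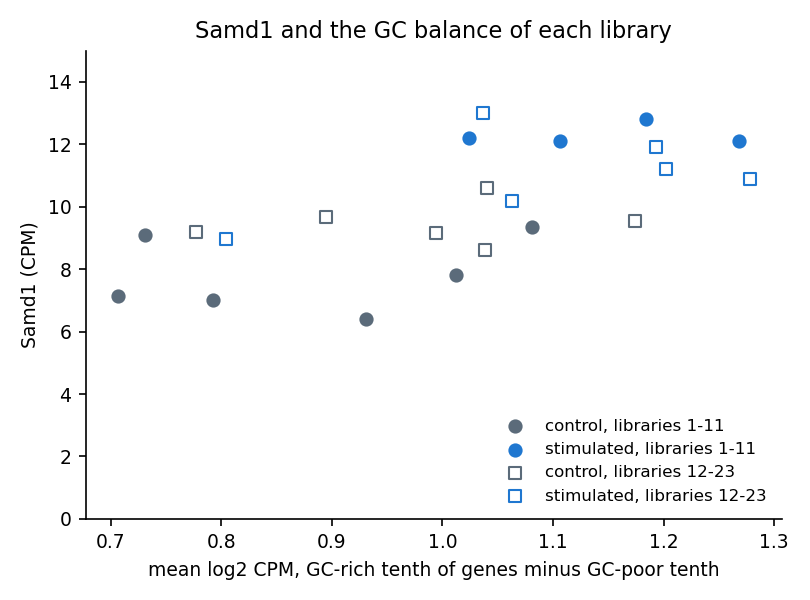
Samd1 level in CPM (vertical axis, from 0) against the GC balance of the same library (horizontal axis, mean log2 CPM of the GC-rich 10% of genes minus that of the GC-poor 10%). Each point is 1 mouse, filled for libraries 1 to 11 and open for libraries 12 to 23. Control mice span 0.71 to 1.17 and stimulated mice 0.80 to 1.28 on the horizontal axis, and the groups overlap on both axes.

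Leaving out the 2 controls with the highest oligodendrocyte marker levels, both of run 2 (ctrl 9 and ctrl 11), gave Samd1 a log2 fold change of 0.44. The marker ranges of the groups overlapped in each run, where the Samd1 difference was 0.67 (run 1) and 0.19 (run 2), and the part of those cells in it was not tested. Values of the genes beside Samd1 were smaller for its nearest neighbours. Of 8 genes in the table within 50 kb, 7 had enough counts to test. Prkaca, which encodes the catalytic alpha subunit of protein kinase A and ends 1229 bases upstream, had a log2 fold change of 0.10 (SE 0.08, unadjusted p = 0.223, edgeR quasi-likelihood test), and 1700067K01Rik, 1093 bases downstream, had 0.09 (SE 0.20, p = 0.641 in the same test). The remaining tested neighbours were Asf1b, a histone chaperone gene, at -0.35, 2210011C24Rik at -0.45, Palm3 at 0.11 and Il27ra, a cytokine receptor gene, at 0.11, none with an unadjusted p under 0.05. Gm10644, 42467 bases away, was the one gene with an unadjusted p under 0.05, at -0.63 (SE 0.26, p = 0.0247, adjusted p = 0.375 in edgeR), from 12 to 60 counts per library. Rln3, the relaxin 3 gene, had 0 to 6 counts and was not tested.

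None of the 9 partners passed the test between stimulated and control mice in the edgeR quasi-likelihood test, either after Benjamini-Hochberg adjustment over all 17524 genes (0.0% of all genes passed) or at an unadjusted p under 0.05 (11.5% of all genes). Of the 9 partners 4 were higher and 5 lower, against 52.6% of all genes higher, with a median at -0.00 against 0.01 for all genes. The 95% intervals of the 9 log2 fold changes ran from -0.22 at the lowest bound to 0.36 at the highest. For each partner below, the p and adjusted p are from that same edgeR fit.

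Kdm1a, the demethylase at the centre of the complex, had a lowest level of 62.1, a median of 90.3 and a highest of 109 CPM in controls, and 80.0, 97.4 and 122 CPM in stimulated mice. The groups overlapped over most of their range. The log2 fold change was 0.11 (SE 0.08, interval -0.05 to 0.28, p = 0.181, adjusted p = 0.597), and it was 0.08 within run 1 and 0.12 within run 2.

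The 3 RCOR scaffolds, which link KDM1A to the deacetylases and to nucleosomes, did not pass the test. Rcor1, which encodes CoREST itself, had a lowest level of 14.6, a median of 26.7 and a highest of 36.4 CPM in controls and 17.3, 26.5 and 38.7 CPM in stimulated mice. Both groups fell into a low and a high part that followed the run, described further on. Its log2 fold change was -0.06 (SE 0.08, interval -0.20 to 0.09, adjusted p = 0.806).

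Rcor2, a scaffold known from stem cells and neural progenitors, had 8.75, 10.5 and 15.5 CPM as lowest, median and highest level in controls, and 10.0, 12.3 and 14.5 CPM in stimulated mice. The stimulated mice all lay within the control range. Its log2 fold change of 0.17 (SE 0.10, interval -0.02 to 0.36) was the largest in size among the partners, with p = 0.095 and adjusted p = 0.503 in edgeR. It was the 1 partner under an unadjusted p of 0.05 in 2 alternatives, limma voom with sample weights (0.23, p = 0.018, adjusted p = 0.222, with 16.3% of all genes at that unadjusted level) and the edgeR fit without control 4 (0.21, p = 0.0264, adjusted p = 0.400, with 11.5% of all genes at that unadjusted level). Control 4 had the highest Rcor2 level of all mice, 15.5 CPM. At 59.7% GC, Rcor2 was also among the GC-rich members. With GC correction its log2 fold change was 0.12 (SE 0.10, adjusted p = 0.717 in edgeR), and it was 0.10 within run 1 and 0.11 within run 2.

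Rcor3 had 12.3, 16.4 and 18.4 CPM in controls and 13.4, 15.0 and 20.0 CPM in stimulated mice as lowest, median and highest levels. Its log2 fold change was -0.04 (SE 0.07, interval -0.17 to 0.09, adjusted p = 0.837), made of 0.09 (SE 0.10) within run 1 and -0.17 (SE 0.10, p = 0.0931) within run 2. In run 2 the lowest, median and highest levels were 12.3, 16.4 and 17.0 CPM in controls and 13.4, 14.0 and 15.1 CPM in stimulated mice. The lowest of those controls was control 11, with the nearest other control at 15.3 CPM. In a joint fit of all mice the interaction of group and run was -0.21 (SE 0.13, p = 0.109, adjusted p = 0.709). Rcor3 values are uncertain in another way, since its exons overlap the opposite-strand genes Gm26879 by 667 bases and Gm10516 by 336 bases, and the library kit keeps no strand, so reads there cannot be assigned. Gm10516 had 123 to 275 counts per library and Gm26879 0 to 6.

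Hdac1 and Hdac2, the deacetylases of the complex, also serve in the NuRD and SIN3 complexes, and neither passed the test. Hdac1 had 6.97, 8.10 and 10.7 CPM in controls and 6.38, 8.02 and 9.23 CPM in stimulated mice, with a log2 fold change of -0.08 (SE 0.07, interval -0.22 to 0.06, adjusted p = 0.672). Hdac2 had 103, 122 and 178 CPM in controls and 108, 142 and 157 CPM in stimulated mice, with a log2 fold change of 0.09 (SE 0.08, interval -0.07 to 0.25, adjusted p = 0.694). The groups overlapped for both genes. Hdac1 had -0.12 within run 1 and -0.07 within run 2, and Hdac2 had -0.05 within run 1 and 0.18 within run 2 (interaction p = 0.105, adjusted p = 0.704).

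Much of Hdac1 cannot be told from a copy by a read of this length. Of the 50-base windows in its transcripts, 35.49% also occur in other genes, mostly in Gm10093, a processed copy at chr17:78491582-78493025 on the plus strand, and only uniquely aligned reads were counted. The longest identical run of coding bases was 450, and 120 of these, coding bases 720 to 839 of Hdac1 (spliced from 3 exons between bases 129518971 and 129521427 of chromosome 4, minus strand), are shown as a stretch in which a 50-base read matches both genes. Gm10093 itself had 3 to 19 counts per library.
Hdac1 and Gm10093: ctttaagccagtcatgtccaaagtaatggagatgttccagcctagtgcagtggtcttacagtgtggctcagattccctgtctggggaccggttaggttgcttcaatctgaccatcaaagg

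Phf21a encodes BHC80, a reader of unmethylated lysine 4 of histone H3, the product that KDM1A leaves. Its lowest, median and highest levels were 21.6, 24.5 and 27.2 CPM in controls and 19.4, 23.5 and 30.0 CPM in stimulated mice. The stimulated mice spread to both sides of the controls (SD 3.24 against 1.79 CPM), and the log2 fold change was -0.06 (SE 0.07, interval -0.19 to 0.06, adjusted p = 0.723).

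Hmg20b encodes BRAF35, a high mobility group protein of the complex. It had 4.45, 6.66 and 9.11 CPM in controls and 4.83, 6.25 and 8.46 CPM in stimulated mice, and a log2 fold change of 0.03 (SE 0.09, interval -0.15 to 0.21, adjusted p = 0.932). Its exons were 61.2% GC, the closest to Samd1 among the members, and its log2 fold change was -0.03 (SE 0.08) with GC correction. The groups overlapped in both runs.

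L3mbtl3 encodes a protein with malignant brain tumour (MBT) repeats that reads methylated lysines. It had 14.9, 19.5 and 28.8 CPM in controls and 15.6, 19.5 and 24.2 CPM in stimulated mice, and a log2 fold change of -0.00 (SE 0.09, interval -0.18 to 0.18, adjusted p = 0.997). The medians of the groups were the same to 3 digits.

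**Figure D3:**
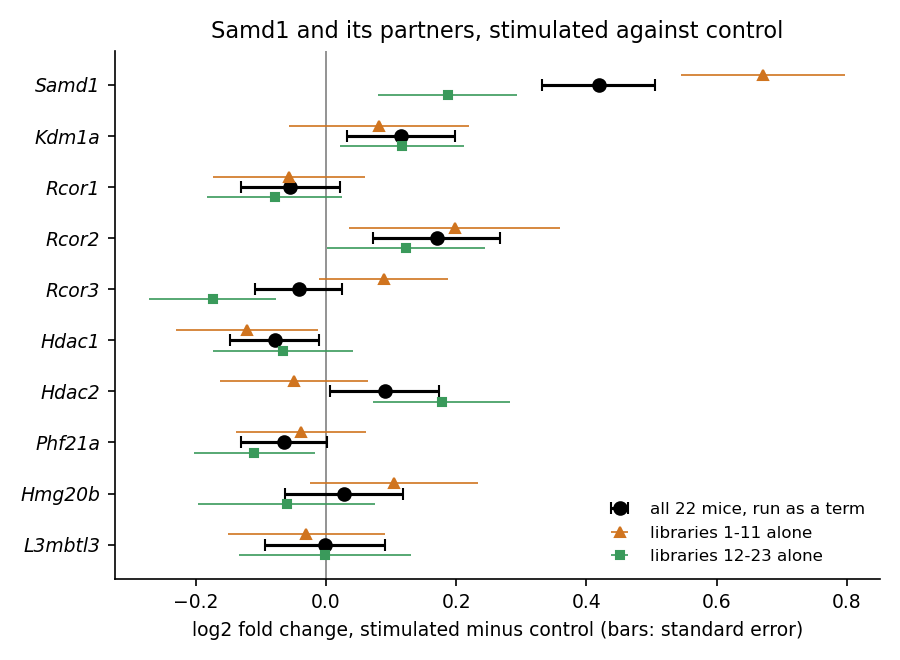
Log2 fold change, stimulated minus control (horizontal axis), of each member, with bars of 1 SE. Black circles are the fit to all 22 mice with the run as a term, triangles are run 1 alone and squares run 2 alone. Samd1 stands at 0.42, with 0.67 and 0.19 in the separate runs, and the partners lie between -0.08 and 0.17 in the fit to all mice.

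Within the runs taken alone, 0 of 9 partners had an unadjusted p under 0.05 in the edgeR quasi-likelihood test, in run 1 (5.56% of all genes, smallest partner p = 0.243, Rcor2) or in run 2 (12.4% of all genes, smallest partner p = 0.0931, Rcor3). For 3 of them, Rcor3, Hdac2 and Hmg20b, the log2 fold change had opposite signs in the runs. With GC correction Hdac2, the member lowest in GC, was at 0.15 over all mice, 0.06 within run 1 and 0.20 within run 2, with the same sign in both runs. The interaction of group and run likewise had 0 of 9 partners at an unadjusted p under 0.05 (8.01% of all genes) and 0 after adjustment (0.0% of all genes).

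Several members differed between the runs of library numbers. Over both groups, 6 of the 10 members differed between the runs in the edgeR quasi-likelihood test (adjusted p under 0.05), against 68.1% of all genes that did. Of these 2 were higher in run 2 (33.7% of all genes) and 4 lower (34.3% of all genes). For 2 members, Rcor1 and Hdac1, the ranges of the runs did not overlap at all (26.1% of all genes). Rcor1 went from a lowest of 14.6, a median of 18.7 and a highest of 23.2 CPM in run 1 to 26.3, 35.4 and 38.7 CPM in run 2, a log2 difference of 0.86 (SE 0.08, 1.82-fold, adjusted p = 2.79e-10). Hdac1 was lower in run 2, from 8.23, 9.54 and 10.7 CPM to 6.38, 7.26 and 8.06 CPM, a log2 difference of -0.38 (SE 0.07, adjusted p = 2.95e-05). These counts are read against the shares of all genes given beside them, and nothing particular to the members is drawn from them.

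Hmg20b was also lower in run 2 (-0.39, SE 0.09, adjusted p = 0.000543 in edgeR), as were Hdac2 (-0.23, SE 0.08, adjusted p = 0.0156) and Rcor3 (-0.18, SE 0.07, adjusted p = 0.0202). Kdm1a was higher (0.22, SE 0.08, adjusted p = 0.0215). Phf21a (0.13, adjusted p = 0.0906), L3mbtl3 (0.18, adjusted p = 0.0805) and Rcor2 (0.00, adjusted p = 0.998) did not pass the test, nor did Samd1. The summed excitatory neuron markers were 2870 to 3740 CPM in run 1 and 4670 to 7680 CPM in run 2, and their part in these differences was not tested.

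**Figure D4:**
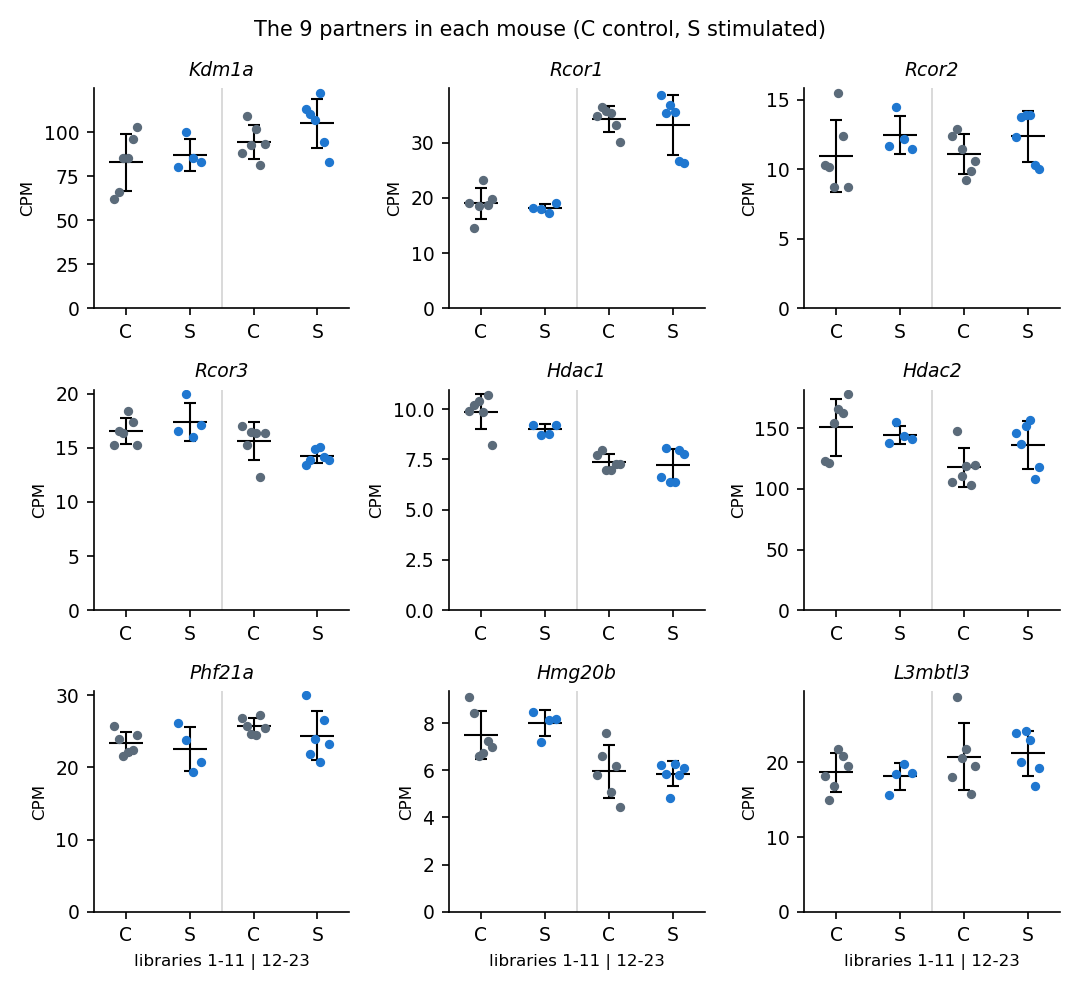
Levels of the 9 partners in CPM (vertical axes, each from 0) in each mouse, C for control and S for stimulated, with libraries 1 to 11 left and libraries 12 to 23 right of the grey line. Bars give the mean ± SD. Control and stimulated mice overlap within each run, while Rcor1 jumps from 14.6 to 23.2 CPM in run 1 to 26.3 to 38.7 CPM in run 2.

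No correlation of Samd1 with a partner across mice passed the adjusted threshold. Correlations were computed within each run on log2 CPM centred on the group means, over 10 mice in run 1 and 12 in run 2, giving 18 relations. The Pearson correlations ran from -0.73 to 0.60, and 0 of 18 passed an adjusted p of 0.05 (permutation test within groups, two-sided, 100000 resamples, smallest adjusted p = 0.220). Several of these depended on 2 mice. Without the 2 mice farthest from the median of Samd1 the correlations ran from -0.84 to 0.87, and the sign turned in 4 of 9 relations in run 1 and 1 of 9 in run 2. In run 1 Kdm1a went from 0.31 to -0.67, Rcor1 from -0.43 to -0.79 and Hmg20b from -0.08 to 0.87. The lowest was with Hdac2 in run 2 (r = -0.73, permutation p = 0.0122, Spearman rho = -0.78, permutation p = 0.00951), at -0.76 without the 2 mice farthest from the median of Samd1. In run 1 the same pair had r = 0.18 (permutation p = 0.699) and rho = 0.05 (permutation p = 0.891), but r = -0.84 without 2 mice. L3mbtl3 in run 2 was the other relation under an unadjusted p of 0.05 (r = -0.58, permutation p = 0.0353, rho = -0.64, permutation p = 0.0346, r = -0.61 without 2 mice, adjusted p = 0.303).

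Among all genes with a mean of at least 100 counts (12521 genes), those most like Samd1 over the 22 mice, after group and run means were removed, were Evpl (r = 0.74), Alkbh2 (0.70), Acy1 (0.66), Abcc10 (0.64) and Phf7 (0.64). Evpl encodes envoplakin of the cornified envelope and Alkbh2 a DNA repair demethylase. The 5 lowest were Senp5 and Tmem62 (both -0.74), Mkks, Stk3 and Strn3 (each -0.72). Among the partners the same measure ran from -0.43 for Hdac2 to 0.21 for Rcor3. The 100 highest genes had a median GC content of 53.7% and the 100 lowest 43.3%, against 50.2% for all genes compared, so the genes most like Samd1 were richer in GC than those least like it.

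The wider pathway was described with 8 lists of genes that do not include the members. In none of the lists did a gene pass the adjusted threshold in the edgeR quasi-likelihood test (0.0% of all genes did), and at an unadjusted p under 0.05 6.05% of all genes were higher and 5.45% lower. Of 22 further proteins that sit in or recruit KDM1A-CoREST and CtBP complexes, 19 were tested, with 11 higher, 8 lower and their median at 0.05. At an unadjusted p under 0.05 1 was higher and 2 were lower. Ehmt1, a methyltransferase of lysine 9 of histone H3, had 31.5 ± 9.57 CPM in controls and 36.1 ± 9.00 CPM in stimulated mice (SD, n = 12 and 10) and a log2 fold change of 0.14 (SE 0.07, p = 0.0494, adjusted p = 0.433 in edgeR). That difference was 0.25 within run 1 and 0.04 within run 2. Rreb1, a zinc finger protein that recruits CtBP, had 10.7 ± 5.18 and 7.73 ± 2.39 CPM, at -0.47 (SE 0.18, p = 0.0139, adjusted p = 0.353 in edgeR). Zeb2, a CtBP-binding repressor, had 79.7 ± 19.1 and 76.1 ± 20.7 CPM, at -0.14 (SE 0.06, p = 0.0412, adjusted p = 0.416 in edgeR). At the same level 1 of the 19 genes was found with GC correction (9.68% of all genes), 0 within run 1 (5.56%), 0 with group as the only term (3.61%), 3 within run 2 (12.4%) and 3 with the replicate block (7.37%). The replicate block joins same-numbered mice and, unless the run is named with it, holds no run term. It sets stimulated mice 5 and 6 of run 2 against controls 5 and 6 of run 1. Its values thus carry part of the run difference. The Rreb1 difference was -0.14 within run 1 and -0.75 within run 2, with the oligodendrocyte marker ranges of each run as given above, and the part of those cells in it was not tested.

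The complexes that share HDAC1 and HDAC2 showed small differences. Of 13 NuRD subunits 7 were higher and 6 lower, with a median of 0.03, and 1 was lower at an unadjusted p under 0.05, Gatad2a, a zinc finger subunit (-0.12, SE 0.06, p = 0.0482, adjusted p = 0.430 in edgeR). With the replicate block (7.37% of all genes), with group as the only term (3.61%) or within run 1 (5.56%), 0 of the 13 NuRD subunits had an unadjusted p under 0.05, against 1 within run 2 (12.4%) and 2 with GC correction (9.68%). Of 13 SIN3 subunits 12 were higher and 1 lower, with a median of 0.05 and a highest value of 0.17, and 0 had an unadjusted p under 0.05. With GC correction 9 of the 13 SIN3 subunits were higher, and 6 of 13 in the fit that blocked on replicate number without the run.

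Among the enzymes that set or remove the mark KDM1A acts on, single genes were lower at an unadjusted p under 0.05 (5.45% of all genes). Of the other 5 demethylases of lysine 4, Kdm5a was at -0.04, Kdm5b at 0.07, Kdm5c at 0.05 and Kdm1b, the paralog of Kdm1a and also in the first list, at -0.07, each with an unadjusted p over 0.05. Kdm5d had 16.6 ± 4.59 CPM in controls and 14.7 ± 2.81 CPM in stimulated mice, at -0.21 (SE 0.09, p = 0.0317, adjusted p = 0.397 in edgeR). With GC correction (9.68% of all genes) or group as the only term (3.61%), 0 of these 5 demethylases had an unadjusted p under 0.05. With the replicate block (7.37%) or within run 1 (5.56%) 0 had, and within run 2 (12.4%) 1 had. Of 12 methyltransferases and core subunits 8 were higher and 4 lower, with a median of 0.03. Kmt2c, a methyltransferase of enhancers, had 61.0 ± 17.6 and 53.5 ± 15.0 CPM, at -0.26 (SE 0.08, p = 0.00341, adjusted p = 0.329 in edgeR), with -0.21 within run 1 and -0.31 within run 2. Of the 12, 1 had an unadjusted p under 0.05 within run 1 (5.56% of all genes) and 1 with GC correction (9.68%). Within run 2 (12.4%) there were 2, and with the replicate block (7.37%) or group as the only term (3.61%) 0.

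Of 9 other genes for MBT-repeat proteins 3 were higher and 6 lower, with a median of -0.02. Of 13 other genes named for a sterile alpha motif domain, the domain that gives Samd1 its name, 11 were tested, with 5 higher, 6 lower and a median of -0.05. In these lists 0 genes had an unadjusted p under 0.05 in the fit to all mice (11.5% of all genes) or within run 1 (5.56%). Within run 2 (12.4%) 1 MBT gene and 1 sterile alpha motif gene had. Of 14 neuronal genes known for REST-binding elements 13 were higher and 1 lower, with a median of 0.14 against 0.01 for all genes and 52.6% of all genes higher. Within run 1 9 of the 14 were higher, with a median of 0.065, and within run 2 13 of 14, with a median of 0.17. The oligodendrocyte markers were lower in stimulated mice (10 of 10, median -0.71), with the ranges in each run given above, as were 5 of 5 astrocyte markers (median -0.17). The summed excitatory neuron markers were 2930 to 3740 CPM in controls and 2870 to 3520 CPM in stimulated mice of run 1, and 4670 to 6770 and 5860 to 7680 CPM in run 2. Of 6 inhibitory neuron markers 1 was lower (median 0.06), and of 6 excitatory neuron markers 3 were (median 0.03). Striatal neuron markers were lower for 0 of 5 (median 0.095), and oligodendrocyte progenitor markers for 4 of 4 (median -0.092). The part of these cells in the values of the list was not tested. Stmn2, a regulator of microtubules in growing axons, had 455 ± 154 CPM in controls and 501 ± 123 CPM in stimulated mice, at 0.24 (SE 0.09, p = 0.0106, adjusted p = 0.349 in edgeR). Syp, the synaptic vesicle protein synaptophysin, had 755 ± 134 and 868 ± 103 CPM, at 0.19 (SE 0.09, p = 0.0479, adjusted p = 0.429 in edgeR). These were the 2 genes of that list with an unadjusted p under 0.05, against 0 within run 1 (5.56% of all genes), 2 within run 2 (12.4%) and 4 with the replicate block (7.37%). With group as the only term, 0 genes of any of the 8 lists had an unadjusted p under 0.05, where 3.61% of all genes did.

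**Figure D5:**
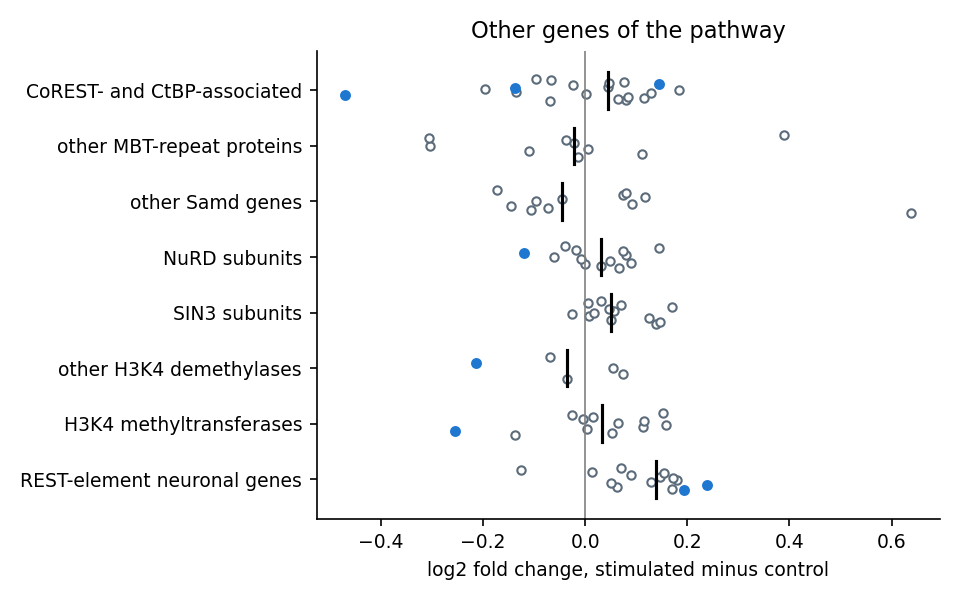
Log2 fold change, stimulated minus control (horizontal axis), of every tested gene in 8 lists around the KDM1A complex. Each point is 1 gene, filled where its unadjusted p is under 0.05, and black bars are list medians. Most points lie close to 0, the SIN3 subunits have a median of 0.05 and the REST-element genes a median of 0.14.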

How the data were processed

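ACC RNA (5 ng) was made into libraries with SMART-Seq v4 and Nextera XT and read as single 50-base ends. Per the study's methods and the submitters' processing notes, the authors used cutadapt 1.10 for trimming, STAR 2.5.3a for alignment to mm10 and HTSeq 0.6.1p1, on Ensembl release 95, to count the uniquely aligned reads of each gene. The strand setting is not given in the sources used here. The authors deposited whole-number counts per mouse, and beside them a normalized signal (counts divided by size factors). They used DESeq2 1.22.1 with RNA integrity and batch as covariates, which the labels do not give. The paper refers to a supplementary table for both, and that table was not used here. Columns holding their fold changes and p-values were not used. There were 0 other columns of per-sample values.

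The 17524 genes that reached 10 counts in 10 or more mice were fitted in edgeR 4.0.16 (R 4.3.3; TMM scaling, quasi-likelihood test, group and run as terms) with Benjamini-Hochberg adjustment over all of them. The 95% intervals use the normal quantile of the SE. Correlations used log2 CPM with a prior count of 2. GC content came from GENCODE M21 exons (37772 of 37786 identifiers matched), and the correction removed a lowess trend (span 0.3) from each library. Alternatives used limma 3.58.1, DESeq2 1.42.0 and sva 3.50.0. The procedures were tested on simulated counts. Figures were drawn with matplotlib 3.10.9.

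The members and gene lists were chosen with earlier results of these data known. The genes named were the 10 members, in each list the genes with an unadjusted p under 0.05 (at most 3 in each direction, or all genes of a list of 5 or fewer), the genes within 50 kb of Samd1, and the 5 genes most and least like it. Replicates are single mice, numbered in the labels. Among the 231 pairs of libraries no 2 agreed within sampling noise.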

Additional observations from a re-analysis of the deposited data

Results flagged for a closer look

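In 50 sets of 4 to 10 mice (each member by group and run, and the larger groups), 4 held a mouse far from the others by Dixon's test, where chance flags about 1 in 20. Samd1 in the stimulated mice of run 1 was highest in stimulated mouse 1 at 12.8 CPM, with the other mice at 12.1 to 12.2 CPM. Rcor3 in the run 2 controls was lowest in control 11 at 12.3 CPM, with the nearest mouse at 15.3 CPM. Hdac1 in the run 1 controls was lowest in control 6 at 8.23 CPM, with the nearest at 9.85 CPM. Hmg20b in the stimulated mice of run 2 was lowest in stimulated mouse 7 at 4.83 CPM, with the nearest at 5.82 CPM.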

How the results depend on the processing

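The log2 fold change of Samd1 was 0.39 to 0.46 when 1 mouse at a time was left out, and moved by over 1 SD among mice to 0.67 within run 1, 0.19 within run 2 and 0.16 with GC correction within run 2, the last chosen after seeing the data. The count of partners at an unadjusted p under 0.05 was 0, against 1 (Rcor2) in limma voom (16.3% of all genes) and 0 to 1 when 1 mouse was left out, with the 1 met without control 4 (11.5% of all genes). After adjustment it was 0 in all 38 alternatives. Same-numbered mice did not deviate together after group and run were removed (correlations from -0.13 to 0.27, mean 0.05), so the numbers were not taken as pairs. With a replicate block and no run term 1291 of all genes had an unadjusted p under 0.05, against 2015, and the list medians were 0.075 for the sterile alpha motif genes, 0.083 for NuRD and 0.141 for the demethylases. Those values carry part of the run difference, since controls 5 and 6 were of run 1 and stimulated mice 5 and 6 of run 2.

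Values near 0 changed sign. Rcor1 was at 0.029 with group alone, 0.088 with the replicate block and 0.084 with the block and GC correction, all fits without a run term. With the block and run it was at -0.123. Rcor3 was at 0.089 in run 1 and 0.117 there with GC correction, and Hdac2 at -0.049 in run 1. Hmg20b was at -0.004 with group alone, -0.067 with the replicate block, -0.023 with the block and run, -0.029 with GC correction, -0.122 with block and GC correction and -0.010 with a surrogate variable. It was at -0.060 in run 2, and with GC correction at -0.001 in run 1 and -0.075 in run 2. L3mbtl3 was at 0.019 with group alone, 0.009 in limma voom, 0.002 with no count minimum, 0.015 with GC correction, 0.007 with block and GC correction and 0.004 with a surrogate variable, and with GC correction at 0.004 in run 1 and 0.002 in run 2. Leaving out 1 mouse gave -0.007 to 0.074 for Hmg20b and -0.039 to 0.059 for L3mbtl3. The causes were not tested.

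Over all genes, those with an unadjusted p under 0.05 numbered 632 with group alone, 974 in run 1, 3687 with no count minimum and 1131 with block and GC correction. After adjustment 0 passed in edgeR, 33 in the DESeq2 Wald test, 1 in limma voom and 1 in edgeR without control 9, with or without control 11. Precision was limited by 197 to 519 counts for Samd1 and by 10 to 12 mice a group. RNA integrity was not analysed here.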

Other observations

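The partners were also compared with each other across mice, a step added after the data had been seen. Log2 CPM centred on the group means gave 72 relations (36 pairs in each run), of which 14 had an unadjusted permutation p under 0.05 and 4 an adjusted p under 0.05 (two-sided, within groups, 100000 resamples). Kdm1a and Hdac2, the demethylase and one of the deacetylases of the complex, were the 1 pair that passed in both runs. Their Pearson correlation was 0.96 over 10 mice in run 1 (permutation p = 0.00153, adjusted p = 0.0367) and 0.86 over 12 mice in run 2 (permutation p = 0.00106, adjusted p = 0.0367), with Spearman rho 0.92 (adjusted permutation p = 0.0579) and 0.88 (adjusted permutation p = 0.0259). Without the 2 mice farthest from the median of Kdm1a, r was 0.92 and 0.89. Of 12521 genes with a mean of at least 100 counts, 0.0639% in run 1 and 3.11% in run 2 had a correlation with Kdm1a at or above that of Hdac2. The same share was not computed for the other pairs, nor were the counts of 14 and 4 set against pairs of genes outside the members. Nothing particular to the members is drawn from those counts. In run 2 L3mbtl3 also passed with Hdac2 (r = 0.92, rho = 0.91, adjusted permutation p = 0.0072 for r and 0.0166 for rho) and with Kdm1a (r = 0.78, rho = 0.80, adjusted permutation p = 0.0461 for r and 0.0579 for rho). By rank L3mbtl3 passed in run 2 with Rcor1 (rho = 0.75, adjusted permutation p = 0.0307, with r = 0.62 and adjusted permutation p = 0.131). Not all relations were positive. In run 1 Hmg20b had r = -0.86 with Kdm1a (permutation p = 0.0124) and -0.88 with Hdac2 (permutation p = 0.0128). Neither passed (adjusted permutation p = 0.131 for both), and in run 2 these were -0.01 and -0.06. The mice differ in the GC balance given above and in the share of counts from mitochondrial genes. In run 1 that share was 4.4, 4.8, 3.0, 2.0, 1.6 and 1.7% in controls 1 to 6. Their Kdm1a levels were 62.1, 65.9, 85.4, 85.3, 96.1 and 103 CPM, and their Hdac2 levels 123, 121, 154, 166, 163 and 178 CPM. Stimulated mice 1 to 4 had 2.8, 2.4, 1.8 and 2.1%, with Kdm1a at 80.0, 100, 85.1 and 83.1 CPM. The part of GC balance or mitochondrial share in these correlations was not tested.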
